A study of Homo sapiens with 8 samples.

Results

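A human gene often ends its transcripts at more than 1 poly(A) site, and the 3′ ends described here are those that an existing annotation already names. Poly(A) site usage had been compared for pairs of sites within a gene, and each site was named either by a Gencode transcript or by a position. The pairs chosen were those present in all 3 tables of comparisons whose proximal and distal sites both carry a transcript name, so that both ends are annotated transcript ends. They were 1069 pairs of 857 genes out of 4692 shared pairs of 2639 genes. Of the other 3623 shared pairs, 2223 set a position as the proximal site against an annotated distal end, 380 set an annotated proximal end against a position, and 1020 joined positions only. A gene with several annotated ends gives several pairs that share those ends: 777 genes had 1 pair, 67 had 3, 11 had 6, and SMC4 and SRSF10 had 10 and 15.

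The cells were MDA-MB-231, an established human triple-negative breast cancer line, made to express dCas9-KRAB, a catalytically dead Cas9 joined to a repressor domain that lowers transcription at the gene a guide RNA targets (CRISPR interference), and sorted for the BFP that marks this construct. All 8 samples carried that construct and a guide in each of a pair of positions, grew in the same high-glucose medium, and fell into 4 groups of 2 replicates. The control held non-targeting guides in both positions, the single knockdowns (KD) held a guide against HNRNPC or against PABPC4 beside a non-targeting guide, and the double KD held guides against both genes. RNA 3′ ends were read with QuantSeq REV, in which an oligo(dT) primer anneals to the poly(A) tail. No pair of HNRNPC or PABPC4 itself was listed, which leaves the KD of each target unchecked here, and the table assigned to PABPC4 KD was assigned by elimination, on which each PABPC4 KD value rests.

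Cleavage and polyadenylation take place shortly after a poly(A) signal, most often the hexamer AAUAAA or its commonest variant AUUAAA, and a weaker signal upstream of a stronger one gives a gene a proximal and a distal end. Ends in the same last exon change the length of the 3′ UTR, where binding sites for microRNAs and RNA-binding proteins lie, while an end inside an intron also changes the coding sequence. HNRNPC is a nuclear protein that binds runs of U and is best known for keeping cryptic exons out of mRNA. PABPC4 is a largely cytoplasmic protein that binds the poly(A) tail. Oligo(dT) primers also anneal to A-rich sequence within a transcript, so the sequence just after each annotated end was examined as well.

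The pairs with the smallest p in double KD were taken separately toward the distal and toward the proximal end, 1 pair per gene. The sequences below are the ends of those whose transcripts kept their version in Gencode release 44 on hg38. They carry the features that the later comparisons use. BTN3A2, whose proximal end is intronic, was not among the pairs taken toward the distal end. Its p in double KD (8.27e-12) was nonetheless below those of ORAI1 (1.33e-11) and MYO1C (4.45e-09). For most ends the last 30 nt of the transcript are shown, with AATAAA or ATTAAA in capitals. For the 4 ends followed by A-rich genome sequence, the 20 nt of genome after the end are shown instead, with runs of 6 or more A in capitals. All are in the sense of the transcript, and all of these ends lie in last exons.
ECE1 proximal, last 30 nt, chr1:21218584-21218613, minus strand: ctccgtcccaaaaaaaagaaaagagaaaca
ECE1 distal, last 30 nt, chr1:21217247-21217276, minus strand: taatggaAATAAAatacttgtacggagggc
ZSCAN18 proximal, last 30 nt, chr19:58087637-58087666, minus strand: ttaaaaaacaaacaaaccaaaaaaaaaaaa
ZSCAN18 distal, last 30 nt, chr19:58083843-58083872, minus strand: gagcaaaggagactaaactccttgggctac
AXL proximal, last 30 nt, chr19:41260265-41260294, plus strand: aattctATTAAAgtgctaaggttctaaggc
AXL distal, last 30 nt, chr19:41261737-41261766, plus strand: caggtcacataaaactttgtatatcaacga
PLEKHB2 proximal, next 20 nt, chr2:131147798-131147817, plus strand: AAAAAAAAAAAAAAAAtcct
PLEKHB2 distal, last 30 nt, chr2:131149822-131149851, plus strand: cATTAAAgcattaaccttaaagcatgtttc
KIAA0319L proximal, next 20 nt, chr1:35434085-35434104, minus strand: AAAAAAAAAAAAAAAAAAAA
KIAA0319L distal, last 30 nt, chr1:35433492-35433521, minus strand: tgggatgATTAAAcatggtatttaactgtg
ORAI1 proximal, last 30 nt, chr12:121642011-121642040, plus strand: acacataaatatactcataaggacacctcc
ORAI1 distal, next 20 nt, chr12:121642678-121642697, plus strand: AAAAAAAAAAgAAAAAAAAA
MYO1C proximal, next 20 nt, chr17:1464822-1464841, minus strand: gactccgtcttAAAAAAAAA
MYO1C distal, last 30 nt, chr17:1464186-1464215, minus strand: acactaAATAAAgcaatacgtgtttgccaa

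Of these 7 proximal ends, only that of AXL held a main signal (AATAAA or ATTAAA) in its last 40 nt, and 3 were followed by A-rich sequence. Of the 7 distal ends, those of ECE1, PLEKHB2, KIAA0319L and MYO1C held a main signal, and that of ORAI1 was followed by A-rich sequence. The wider set of ends differed in the same direction between proximal and distal. Among the 761 distinct proximal ends with a matching annotation, 232 held a main signal in their last 40 nt (30.5%, Wilson 95% interval 27.3 to 33.8%), against 587 of 761 distal ends (77.1%, 74.0 to 80.0%) and 2802 of the 4220 transcript-named ends of all tables (66.4%). Where a signal was present, its median distance to the end was 24 nt on both sides. In 468 of 842 annotated pairs (55.6%) the distal end alone held a main signal, in 190 both did, in 121 neither did, and in 63 the proximal end alone did.

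The 20 nt after the end were A-rich, meaning a run of at least 6 A or at least 12 A in all, at 190 proximal ends (25%) and at 46 distal ends (6.04%). Over all transcript-named ends the share was 403 of 4220 (9.55%). Runs of A inside the transcript before its end, as at the proximal ends of ECE1 and ZSCAN18, were not counted. A stretch of 5 or more consecutive U in the last 100 nt, the kind of sequence HNRNPC binds, was present at 213 proximal ends (28.0%) and at 271 distal ends (35.6%), against 1458 of all ends (34.5%). The proximal transcripts were also less complete: 13.4% were tagged as lacking a complete 3′ end, against 1.18% of the distal ones, and 48.6% were protein coding, against 77.8%. Retained-intron transcripts made up 19.6% of proximal and 7.49% of distal ends, and targets of nonsense-mediated decay 16.2% and 6.83%. Motifs were searched on the transcript strand only, and a match is a description of letters, not of a used site.

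**Figure D1:**
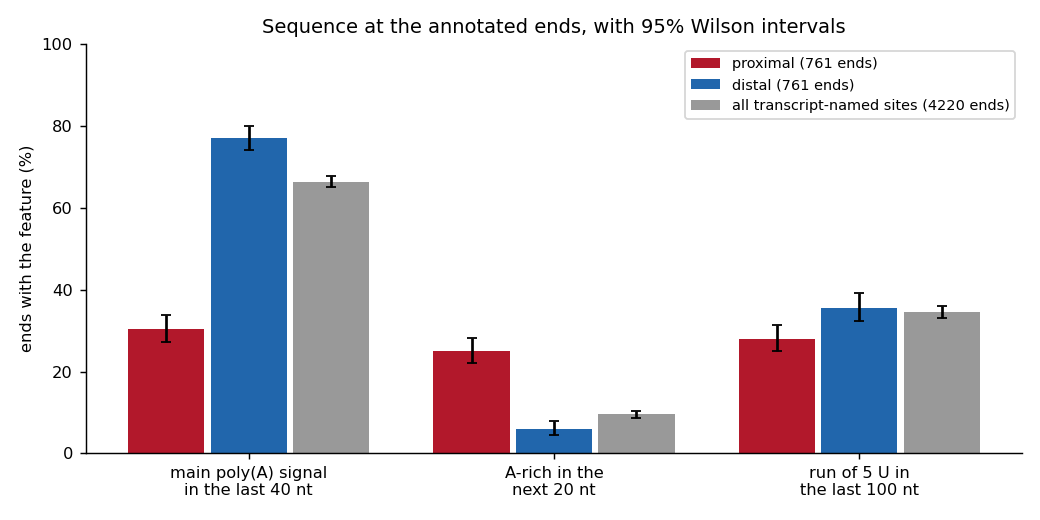
Share of distinct proximal ends (red, 761), distal ends (blue, 761) and all transcript-named ends of the tables (grey, 4220) with a main poly(A) signal in the last 40 nt, A-rich genome sequence in the next 20 nt, or a run of at least 5 U in the last 100 nt, in percent, with Wilson 95% intervals. Proximal ends held the main signal in 30.5% and distal ends in 77.1%, while A-rich sequence followed 25% and 6.04%.

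Both transcripts matched the annotation with the same version in 842 pairs of 693 genes, and in all of those the named proximal end lay upstream of the distal end. The ends lay 177 to 311329 nt apart, with a median of 2582 nt and quartiles at 1129 and 7031 nt. In 549 pairs the last exons overlapped (tandem ends), in 208 the proximal end lay inside an upstream exon of the distal transcript, in 47 it lay inside one of its introns, and in 38 it lay outside it. In 207 tandem pairs both transcripts used the same stop codon, so the ends give 3′ UTRs of different length. Their median 3′ UTR was 615 nt to the proximal and 2824 nt to the distal end, with a median of 1824 nt added (quartiles 1090 and 3190 nt).

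The first question was how many annotated pairs switched in each KD. The deposited value, logAPAR, compares how often a gene's proximal end was used relative to its distal end in KD and in control cells. It is given as a natural log, and values below 0 mean more use of the distal end. A pair was called when its deposited p was under 0.01, the threshold that the study used. The tables hold no value per library, so a p reflects the reads of both replicates together and leaves out the spread between them. In double KD 89 of the 1069 pairs were called (8.33%, 77 genes), beside 4.33% of all 6461 pairs of that table. In HNRNPC KD 37 were called (3.46%, 36 genes), beside 2.08% of all 5861 pairs. In PABPC4 KD 19 were called (1.78%, 19 genes), beside 0.756% of all 5953 pairs. The other shared pairs were called in 5.16%, 2.21% and 0.662% in the same order. In all, 112 of the 1069 pairs (10.5%) were called in at least 1 table. That share was not counted over the other shared pairs, so it describes the annotated pairs only.

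Past an adjusted p of 0.05 (Benjamini-Hochberg over the whole table) were 48 annotated pairs in double KD, 12 in HNRNPC KD and 1 in PABPC4 KD, where 2.23%, 0.427% and 0.0168% of all pairs passed. At an unadjusted p of 0.05 the counts were 146 (13.7%), 96 (8.98%) and 68 (6.36%), beside 9.12%, 6.77% and 4.03% of all pairs of the tables and 11.3%, 7.56% and 4.09% of the other shared pairs. The called pairs just inside the threshold had p 0.00970 in double KD, 0.00962 in HNRNPC KD and 0.00938 in PABPC4 KD, and those just outside had 0.0108, 0.0101 and 0.0106.

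Precision differed between the kinds of pairs. The median Wald standard error of the annotated pairs was 0.605 in double KD, 0.638 in HNRNPC KD and 0.628 in PABPC4 KD, lower than the 0.692, 0.735 and 0.711 of the other shared pairs. Among pairs with a standard error under 0.3, 44 of 139 annotated pairs were called in double KD (31.7%), against 23.3% of the other shared pairs of that precision. In HNRNPC KD these shares were 15.2% and 12.2%, and in PABPC4 KD 9.09% and 2.83%. At a standard error of 0.6 or above 1.67% of annotated and 1.72% of other pairs were called in double KD, and 539 of the 1069 annotated pairs had an error of that size. Whether the remaining difference in the precise classes exceeds what the kinds of pairs would give was not tested.

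**Figure D2:**
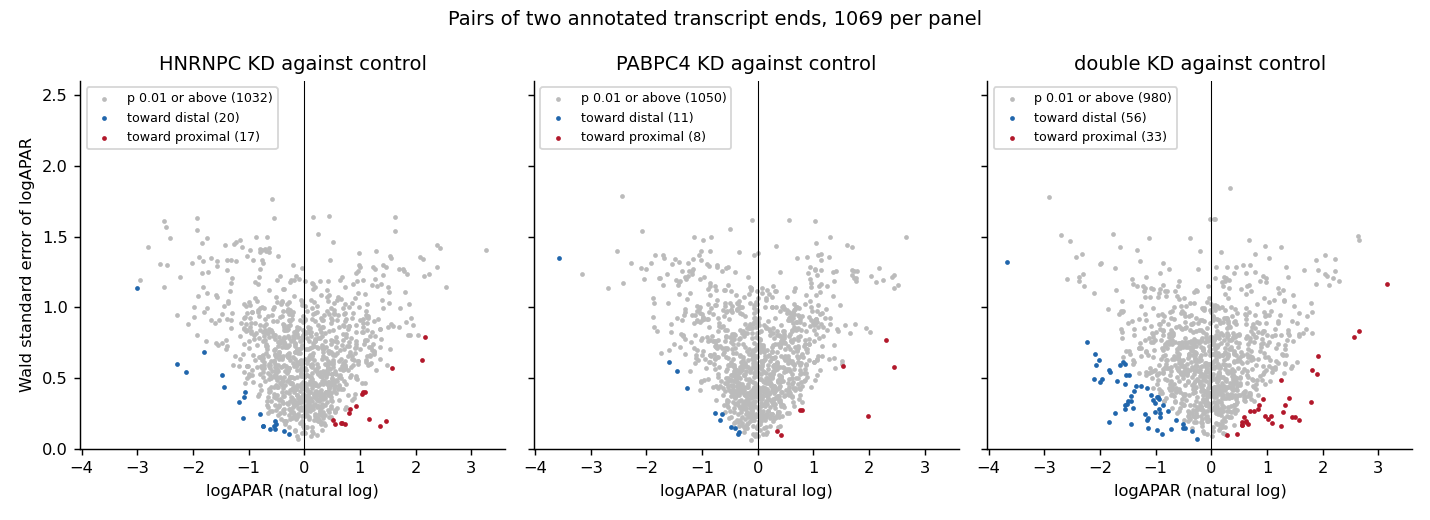
logAPAR (natural log, negative toward the distal end) of the 1069 annotated pairs against its Wald standard error, 1 panel per KD against control, with pairs past p 0.01 in blue (toward distal) or red (toward proximal). Called pairs lie along the outer edge of the funnel, 56 blue and 33 red in double KD, 20 and 17 in HNRNPC KD and 11 and 8 in PABPC4 KD.

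Switches ran in both directions. In double KD 56 of the 89 called pairs moved toward the distal end (62.9%, Wilson 95% interval 52.5 to 72.2%), where 2.48% of all pairs of the table were called in that direction. In HNRNPC KD 20 of 37 did (54.1%, 38.4 to 69.0%, background 1.14%), and in PABPC4 KD 11 of 19 did (57.9%, 36.3 to 76.9%, background 0.336%). At 1 pair per gene the distal share of double KD was 58.8%. Without pairs that hold an end followed by A-rich sequence it was 56.9%. The median logAPAR over all 1069 pairs was −0.0371 in double KD (95% interval −0.0976 to 0.0273), 0.00576 in HNRNPC KD (−0.0440 to 0.0539) and −0.00386 in PABPC4 KD (−0.0411 to 0.0377). Over all pairs of the tables it was 0.00853, 0.00822 and 0.00989, so the annotated pairs as a whole stayed close to 0 in each KD. The called pairs had a median absolute logAPAR of 1.25 in double KD, 1.04 in HNRNPC KD and 0.767 in PABPC4 KD. The intervals of shares and medians over pairs, here and below, treat pairs as independent. Pairs share ends within genes, however, and no replicate error enters these intervals.

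In double KD the smallest p among the annotated pairs belonged to CRELD2, which encodes an endoplasmic reticulum protein induced by stress. Its logAPAR was −1.83 ± 0.190 (SE), a ratio of proximal to distal usage 0.16 times that of control (95% Wald interval 0.11 to 0.232, p 4.93e-22), beside −0.5 in HNRNPC KD and −0.426 in PABPC4 KD. Its transcripts have changed version since, so that the positions of its ends were not taken from the annotation used here. ECE1 encodes endothelin-converting enzyme, and its ends, 1337 nt apart, make 3′ UTRs of 1371 and 2708 nt. Its value was −0.895 in double KD (0.409 times, 0.331 to 0.504, p 7.79e-17), −0.135 in HNRNPC KD and −0.0496 in PABPC4 KD, of which the first alone was called.

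ZSCAN18, a zinc finger gene, joined 2 retained-intron transcripts whose ends lay 3794 nt apart. Its ratio was 0.475 times control in HNRNPC KD (0.348 to 0.648, p 2.68e-06) and 0.238 times in double KD (0.168 to 0.337, p 5.12e-16). PLEKHB2, which encodes a pleckstrin homology domain protein of recycling endosomes, gains 2054 nt of 3′ UTR at its distal end. It was called in all 3 tables, at 0.593 times control in HNRNPC KD, 0.667 times in PABPC4 KD and 0.319 times in double KD (0.238 to 0.429, p 3.1e-14). KIAA0319L, which encodes a membrane protein known as the receptor for adeno-associated virus, has ends 613 nt apart. It fell to 0.715 times in PABPC4 KD (p 0.00523) and 0.379 times in double KD (0.291 to 0.494, p 6.48e-13), with 0.851 times in HNRNPC KD (p 0.196). In PLEKHB2 and KIAA0319L the proximal end was one of those followed by A-rich genome sequence. The proximal transcript of ZSCAN18 itself finishes in a run of A, which is not followed by A-rich sequence and was not counted as such. The part of these sequences in the values was not tested.

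Toward the proximal end, the smallest p in double KD belonged to SNHG16, a host of small nucleolar RNAs, with logAPAR 1.57, close to its 1.47 in HNRNPC KD. AXL, a receptor tyrosine kinase, had ends 1472 nt apart behind the same stop codon, with 3′ UTRs of 390 and 1862 nt, and a ratio 3.87 times control in HNRNPC KD and 3.49 times in double KD. ORAI1, the pore subunit of the store-operated calcium channel, rose to 1.69 times in HNRNPC KD (1.14 to 2.51, p 0.00962) and 4.47 times in double KD (2.89 to 6.89, p 1.33e-11). Its distal end is the one followed by A-rich sequence. MYO1C, a class I myosin motor, was at 1.3 times in HNRNPC KD, 1.09 times in PABPC4 KD and 2.97 times in double KD (2.07 to 4.28, p 4.45e-09), the last alone called, and its A-rich sequence follows the proximal end. CHURC1, a small zinc-binding protein, rose 4.22 times in double KD (2.72 to 6.54, p 1.15e-10) beside 1.25 and 0.979 times in the single KDs.

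HNRNPC KD alone moved pairs of genes with diverse roles. Toward the distal end lay MBD3, a subunit of the NuRD chromatin remodelling complex, at 0.33 times control (0.216 to 0.506, p 3.54e-07), whose proximal end belongs to a decay target. CHMP3, a subunit of the ESCRT-III membrane scission machinery, was at 0.476 times (0.348 to 0.653, p 3.97e-06), and HDLBP, which encodes the RNA-binding protein vigilin, at 0.541 times (0.411 to 0.712, p 1.22e-05). DERL1, a factor of endoplasmic reticulum-associated degradation, was at 0.119 times (0.0411 to 0.344) and was called in all 3 tables. Toward the proximal end lay USP7, the deubiquitinase that acts on MDM2 and p53, at 2.09 times (1.48 to 2.95, p 2.7e-05), ORAI2, a paralogue of ORAI1, at 1.98 times (p 0.000167), and CD44, the hyaluronan receptor, at 1.95 times (p 0.000316). MBD3, CHMP3, HDLBP, DERL1, USP7 and CD44 were also called in double KD with the same sign, and ORAI2 was not, at 1.09 times (p 0.656). The tables share their control samples, so these repeats are given as values only.

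In PABPC4 KD a single pair passed the adjusted threshold. TIMM50, the receptor of the mitochondrial inner membrane import channel, joined ends of 2 decay-target transcripts 2794 nt apart, the proximal one inside an upstream exon, and rose 7.19 times (4.54 to 11.4, adjusted p 2.29e-13), beside 1.62 times in HNRNPC KD and 2.61 times in double KD. In the same direction lay SRRM2, a scaffold of nuclear speckles, at 1.51 times (p 3.24e-05), TOB1, an antiproliferative partner of the CCR4-NOT deadenylase, at 10.1 times (2.23 to 45.5, p 0.00268), and ISY1, a splicing factor, at 2.19 times (p 0.00435).

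Toward the distal end in PABPC4 KD lay NQO1, a quinone reductase, at 0.509 times (0.343 to 0.753, p 0.000743), SETD5, a SET domain protein, at 0.697 times (p 0.00075), SNU13, a protein of the U4 and box C/D ribonucleoproteins, at 0.619 times (p 0.00194), BTN3A2, a butyrophilin of the immunoglobulin superfamily, at 0.465 times (p 0.00251), and SLC35E1, a solute carrier, at 0.282 times (p 0.00314). NQO1 and SNU13 were not called in HNRNPC KD or double KD, where NQO1 was at 1.34 and 1.14 times and SNU13 at 1 and 1.16 times. BTN3A2 joined an intronic end to the full-length end 4706 nt downstream, and reached 0.176 times in double KD (0.107 to 0.289, p 8.27e-12).

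Other pairs called in more than 1 table moved as follows. Distal shifts in HNRNPC KD and double KD were seen for RNASEH1, the nuclease of RNA in RNA-DNA hybrids (0.312 and 0.224 times control), TRIM56, a ubiquitin ligase (0.452 and 0.401), AHCYL1, a regulator of inositol trisphosphate receptors (0.69 and 0.702), and NUP214, a nuclear pore protein (0.338 and 0.364). Proximal shifts in the same KDs were seen for the transcription factor RUNX1 (4.85 and 6.08 times) and GATAD2A, a NuRD subunit (2.26 and 1.99). The intervals of RUNX1 were wide (1.58 to 14.8 and 2.04 to 18.1). NBPF20 (8.78 and 14.1 times, with very wide intervals of 1.86 to 41.6 and 2.78 to 71.8) belongs to a multicopy family, so its reads may be split among copies. In PABPC4 KD and double KD, WASHC4, of the endosomal WASH complex, was at 0.202 and 0.192 times. RPL23, a ribosomal protein gene, was at 0.028 and 0.0253 times there, with very wide intervals (0.00198 to 0.394 and 0.00189 to 0.34). SLC4A7, a bicarbonate cotransporter, was at 2.13 and 2.16 times. The proximal transcripts of TRIM56, WASHC4 and SLC4A7 are tagged as lacking a complete 3′ end, so the named end need not be where the RNA ends. In WASHC4 and SLC4A7 that end lies inside an upstream exon of the distal transcript. A-rich sequence follows the proximal ends of RNASEH1, TRIM56 and AHCYL1 and the distal end of RPL23.

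**Figure D3:**
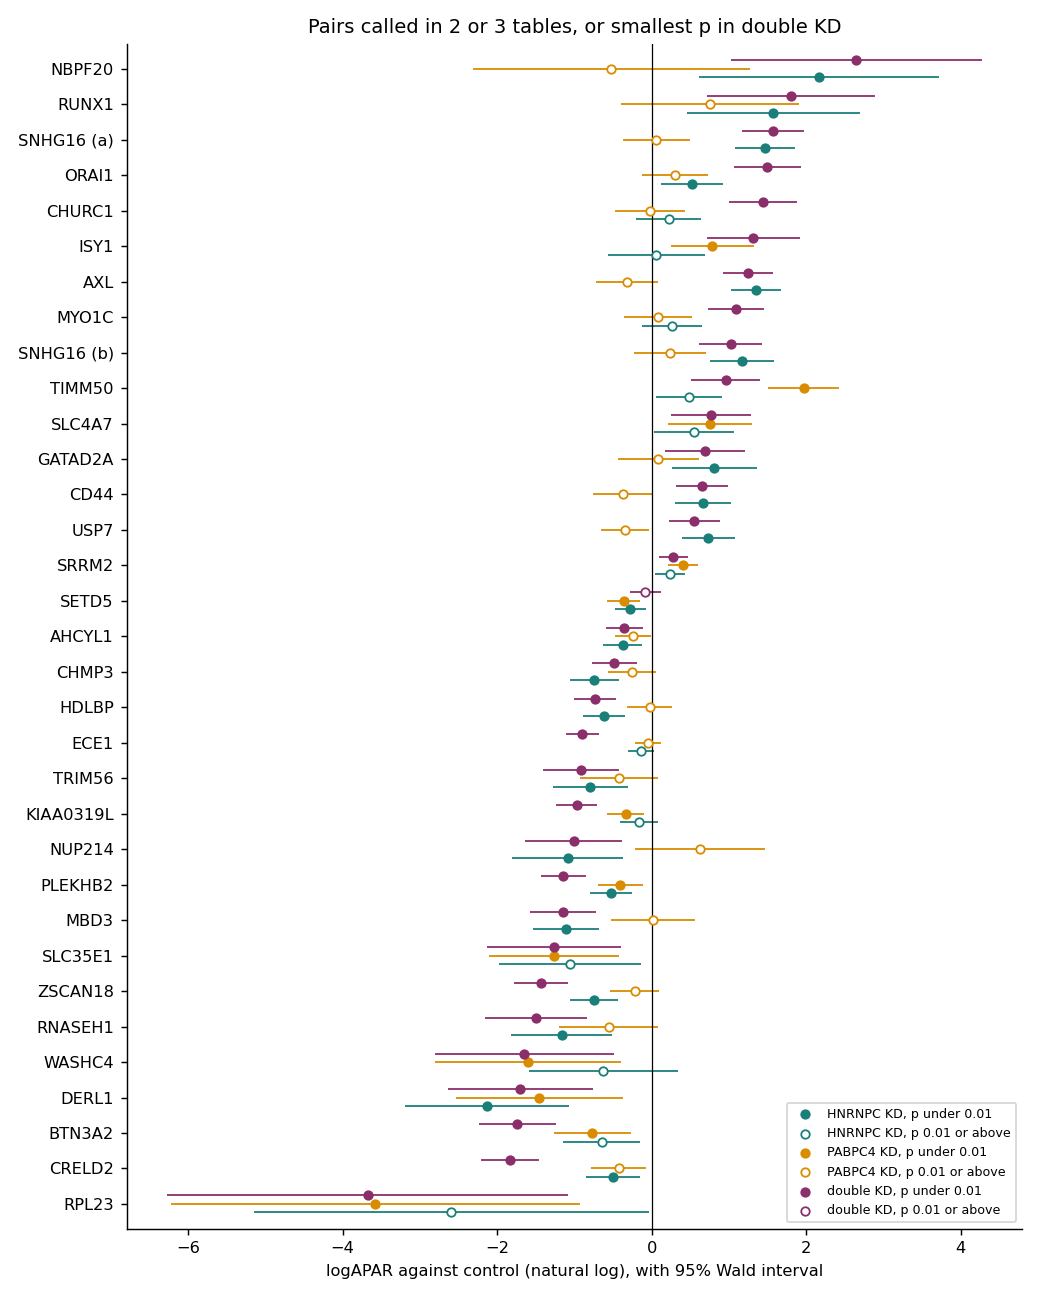
logAPAR against control (natural log) with its 95% Wald interval in HNRNPC KD (green), PABPC4 KD (orange) and double KD (purple) for annotated pairs called in more than 1 table and those of smallest p in double KD, ordered by the double KD value, filled where p was under 0.01. SNHG16 (a) and (b) share a proximal end. ECE1 sits at −0.895 in double KD with both single KDs near 0, while AXL sits at 1.35 and 1.25 in HNRNPC KD and double KD and below 0 in PABPC4 KD.

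Reads per end could be worked back from the errors of the tables at genes with 3 or more shared sites, which gave the depth behind 503 annotated pairs of 291 genes. The median was 14.7 normalised reads at the proximal end in control, 16.7 in double KD, 13.5 in HNRNPC KD and 15.8 in PABPC4 KD, and 16.9, 19.9, 17.3 and 18.2 at the distal end in that order, both replicates summed. The median proximal share was 49.1% in control, 48.2% in double KD, 50.6% in HNRNPC KD and 50% in PABPC4 KD. These reads are reconstructed, not counted, and their intervals cover counting error only.

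The reconstructed shares give the reads of the proximal end among those of both ends of a pair, and leave out the other ends of the gene, of which each of these genes has at least 1. For ECE1 the proximal share was 16.1% in control, 7.28% in double KD, 14.4% in HNRNPC KD and 15.5% in PABPC4 KD. Behind these shares were, in the same order, 314.3, 139.5, 298.9 and 313.2 reads at the proximal end and 1635, 1776, 1780 and 1713 at the distal end, so in double KD the proximal reads were lower and the distal reads were not. For AXL it was 11.6% in control, 31.4% in double KD, 33.7% in HNRNPC KD and 8.75% in PABPC4 KD, with 58.8, 206.9, 198.6 and 49.7 proximal reads in that order and 391 to 518 distal reads. In AXL, then, the groups with a guide against HNRNPC lay apart from the other groups at the proximal end, and their intervals did not overlap those of the others. HDLBP had proximal shares of 46.7% in control and 46.1% in PABPC4 KD, against 29.7% in double KD and 32.2% in HNRNPC KD. CHMP3 was at 27.2% in control and 15.1%, 22.4% and 18.7% in HNRNPC KD, PABPC4 KD and double KD.

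The proximal share of the RNASEH1 pair was 82.7% in control and 59.8%, 73.2% and 51.6% in HNRNPC KD, PABPC4 KD and double KD. In the same order TRIM56 was at 75.8% in control and 58.6%, 67.3% and 55.6%. NUP214 was at 63.6% in control, 38.8% in double KD, 37.1% in HNRNPC KD and 76.6% in PABPC4 KD. USP7 ran the other way, at 60.6% in control, 72.8% in double KD, 76.3% in HNRNPC KD and 52.1% in PABPC4 KD. NQO1 stood apart in PABPC4 KD alone, at 31.2% against 47.2% in control, 54.5% in HNRNPC KD and 50.3% in double KD. ISY1 was at 8.87% in control, 26.6% in double KD, 9.39% in HNRNPC KD and 17.6% in PABPC4 KD, and MYO1C at 15.7%, 35.6%, 19.4% and 16.8% in that order.

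**Figure D4:**
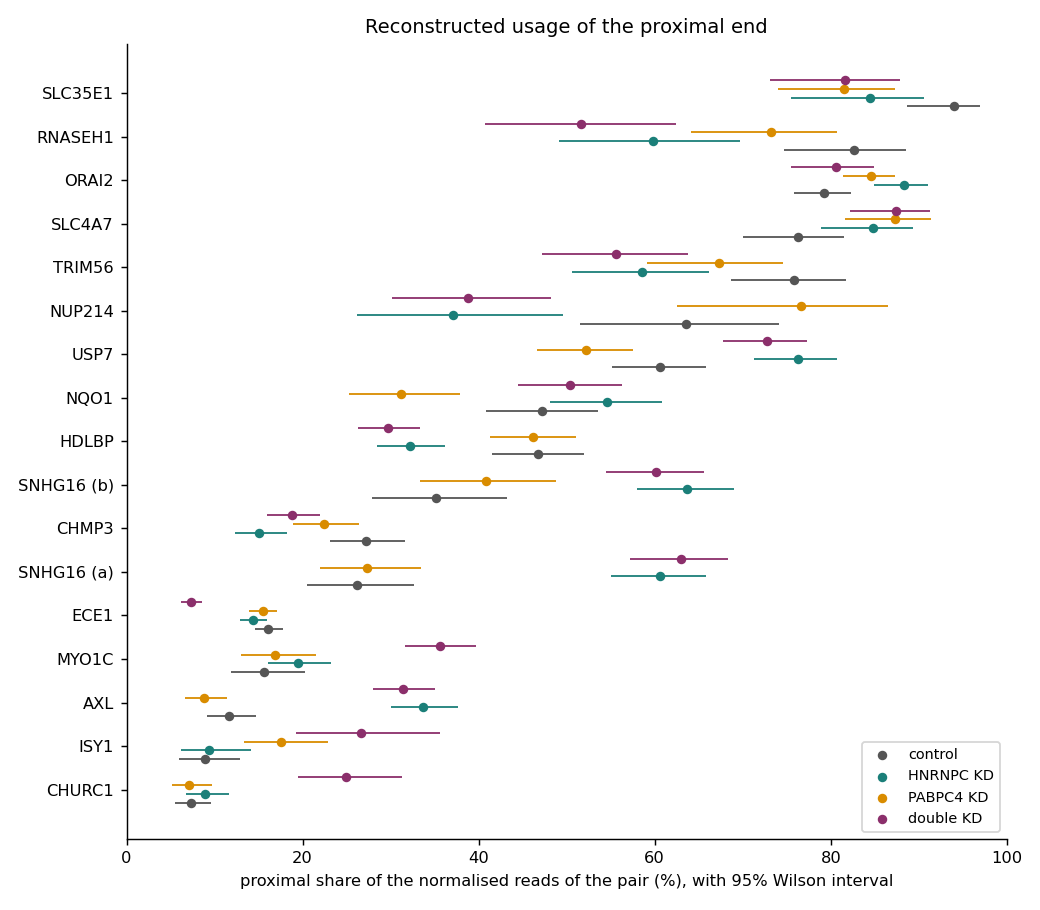
Reconstructed share of the proximal end among the normalised reads of the pair, in percent with Wilson 95% intervals, in control (grey), HNRNPC KD (green), PABPC4 KD (orange) and double KD (purple) for the plotted pairs that had reads. In AXL and both SNHG16 pairs HNRNPC KD and double KD sit to the right of control, in HDLBP and RNASEH1 to the left, and in ECE1 double KD alone sits apart at 7.28%.

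The same reads show which end moved. In double KD, 33 pairs of 26 genes called toward the distal end had reads, and in 30 of them the proximal reads were lower than in control and in 30 the distal reads were higher. The median log2 change was −1.17 at the proximal end and 0.75 at the distal end, beside 0.11 over all 2253 reconstructed sites. In the 14 pairs of 12 genes called toward the proximal end, the proximal reads were higher in all 14, but by a median log2 of 0.39, and the distal reads were lower in all but 3, with a median of −0.73. In both directions, then, the larger median change was a loss at the end that the gene moved away from. In HNRNPC KD the 10 distal pairs had medians of −0.47 at the proximal and 0.89 at the distal end, and the 7 proximal pairs 1.36 and −0.28, beside −0.13 over all sites, so there the larger median was a gain. These medians come from pairs chosen for their ratio, share ends within genes and have no replicate error.

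By structure, the share called over all 842 pairs with a matching annotation was 7.72% in double KD, 3.44% in HNRNPC KD and 2.02% in PABPC4 KD. Tandem pairs, whose last exons overlap, held 53 of the 65 annotated calls of double KD (53 of 549, 9.65%, 40 toward distal), 25 of 29 in HNRNPC KD (4.55%, 17 toward distal) and 11 of 17 in PABPC4 KD (2%, 8 toward distal), the last a share close to that of all annotated pairs. Their median logAPAR in double KD was −0.115 (95% interval −0.192 to −0.0587), beside −0.0843 (−0.136 to −0.0229) over all 842 annotated pairs. Other classes that overlap with tandem pairs also had intervals wholly below 0 in double KD, among them pairs with ends 1000 to under 10000 nt apart at −0.138 (−0.221 to −0.0497) and pairs with a retained-intron or decay transcript at −0.101 (−0.172 to −0.0214). These intervals describe the spread over pairs. They treat pairs as independent, although pairs share ends within genes, and hold no replicate error. Where the proximal end lay in an upstream exon, 4, 5 and 4 of 208 pairs were called in HNRNPC KD, PABPC4 KD and double KD, and of these 13 calls 2 were toward the distal end. None of the 38 pairs with a proximal end outside the distal transcript was called in any table.

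By distance, 43 of 490 pairs with ends 1000 to under 10000 nt apart were called in double KD (8.78%, beside 7.72% of all annotated pairs), 37 of them toward the distal end. At 200 to under 1000 nt 19 of 177 were called (10.7%), 10 toward distal, and at 10000 nt or more 3 of 174 were called (1.72%), none toward distal. In HNRNPC KD the counts in these classes were 16 (12 toward distal), 10 (5) and 3 (0), and in PABPC4 KD 9 (7), 6 (3) and 2 (0). They made 3.27%, 5.65% and 1.72% of the classes in HNRNPC KD and 1.84%, 3.39% and 1.15% in PABPC4 KD. By biotype, pairs of protein-coding transcripts gave 25 calls in 341 in double KD (7.33%, 18 toward distal). Those with a retained-intron or decay transcript gave 29 in 367 (7.9%, 21), and the rest 11 in 134 (8.21%, 8). All of these shares lay near the 7.72% of all annotated pairs. Where a transcript lacked a complete 3′ end, 4 of 122 were called in double KD (3.28%).

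Among all 842 pairs with a matching annotation, 47 of the 65 calls of double KD were toward the distal end (72.3%, Wilson 95% interval 60.4 to 81.7%). Among the 227 pairs without one, 24 were called (10.6%), 9 of them toward the distal end (37.5%, 21.2 to 57.3%). The direction of the calls thus differed between pairs whose order along the gene could be checked and pairs whose order was taken from the tables alone. The 2 sets differ in annotation history, and whether that bears on the direction was not tested.

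Tandem pairs behind the same stop codon differ in the length of the 3′ UTR, although their transcripts can also differ further upstream. Of these 207 pairs, 19 were called in double KD (9.18%, beside 7.24% of the remaining 635 annotated pairs), 16 of them toward the longer 3′ UTR. In HNRNPC KD 8 were called (3.86% beside 3.31%, 7 toward the longer) and in PABPC4 KD 5 (2.42% beside 1.89%, 3 toward the longer), so the shares called lay near those of the other annotated pairs. Beside ECE1, PLEKHB2, HDLBP, CHMP3 and AHCYL1, the lengthened genes of double KD included PRKAR2A, a regulatory subunit of protein kinase A (logAPAR −1.2, p 1.2e-06, 3′ UTR 1937 to 4999 nt), KCTD20 (−2.11), TUBD1, which encodes delta-tubulin (−1.45), PLEKHA2 (−0.927), PPM1K, the phosphatase of the branched-chain ketoacid dehydrogenase (−1.55), and IL11, a cytokine of the interleukin-6 family (−0.642). These 6 were named after their values were seen. The proximal end of the PRKAR2A pair held 72.1% of its reads in control and 43.9% in double KD, with 162.2 and 46.4 proximal reads. That of PLEKHA2 held 98.9% and 97.2%, with 3573 and 1375 proximal reads, so a large drop in proximal reads moved its share little. The 3 shortened genes were AXL, MYO1C and CBX6, a Polycomb protein (0.466, p 1.28e-05).

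Intronic ends were few. Of the 47 pairs whose proximal end lay inside an intron of the distal transcript, 8 were called in double KD (17%, beside 7.72% of all annotated pairs, a difference that was not tested), 6 of them toward the distal end, with 1 call in PABPC4 KD and none in HNRNPC KD. Several of the 47 are pairs of SRSF10 that share ends and are not independent, among them 3 of the 8 calls. Beside BTN3A2 the called pairs were NAIF1 (−1.4), TEP1, a telomerase-associated protein (−1.97), and 3 pairs of SRSF10 toward the distal end, and FGFR1, a fibroblast growth factor receptor (1.78), and ZNF207, a zinc finger protein of the spindle (0.929), toward the proximal end. In FGFR1 the proximal transcript is protein coding, with a 3′ UTR of 900 nt. Its end is intronic only relative to the distal transcript, a shorter one without a defined coding sequence, whose end is followed by A-rich sequence. Of these 8 calls, 4 fell among the 13 intronic pairs whose proximal end is followed by A-rich sequence (30.8%, all toward distal) and 4 among the other 34 (11.8%, 2 toward distal), and the part of that sequence was not tested. The 13 pairs and their 4 calls include SRSF10 pairs with the same proximal end. NAIF1, TEP1, ZNF207 and SRSF10 were named after their values were seen. Of the reads of the NAIF1 pair, the intronic end held 85.2% in control, 58.6% in double KD, 85.3% in HNRNPC KD and 85.8% in PABPC4 KD.

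SRSF10, an SR-type splicing factor, had 6 annotated ends and 15 pairs, of which 5 were called in double KD, all toward the distal end, and none in the single KDs. The 5 share ends and are not independent. The retained-intron end upstream had 71.6 reads in control, 36.9 in double KD, 72.4 in HNRNPC KD and 74.3 in PABPC4 KD. The 3 ends downstream of it in these pairs went from 6.94 to 26.2, from 15.1 to 33.3 and from 62.1 to 87.8 reads between control and double KD. Proximal usage was thus lower and distal usage higher at each of them in double KD, and the proximal end of 3 of the 5 pairs is followed by A-rich sequence.

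Sequence at the proximal end also divided the calls of double KD. Where A-rich genome sequence followed the proximal end, 24 of 213 pairs were called (11.3%), 21 of them toward the distal end, against 41 of 629 (6.52%), 26 toward distal, where it did not. Within tandem pairs the counts were 19 of 127 (15%, 17 toward distal) and 34 of 422 (8.06%, 23 toward distal). In HNRNPC KD they were 5 of 213 (2.35%) and 24 of 629 (3.82%), and in PABPC4 KD 5 (2.35%) and 12 (1.91%). Of all annotated pairs 7.72% were called in double KD, 3.44% in HNRNPC KD and 2.02% in PABPC4 KD. Pairs whose proximal end held a main signal gave 21 calls in 253 in double KD (8.3%), 10 toward distal. Those with another single-base variant of AATAAA alone gave 23 in 342 (6.73%), 19 toward distal. Those with neither gave 21 in 247 (8.5%), 18 toward distal, so these shares lay near that of all annotated pairs. A U run lay within 100 nt before the proximal end in 228 pairs. Of these, 12 were called in HNRNPC KD (5.26%, 9 toward distal), 7 in PABPC4 KD (3.07%, 5) and 14 in double KD (6.14%, 7). Of the 614 without one, 17 (2.77%, 8 toward distal), 10 (1.63%, 5) and 51 (8.31%, 40) were called in the same order. The classes overlap, no difference between them was tested, and whether priming on A-rich sequence plays a part in the double KD values was not tested.

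**Figure D5:**
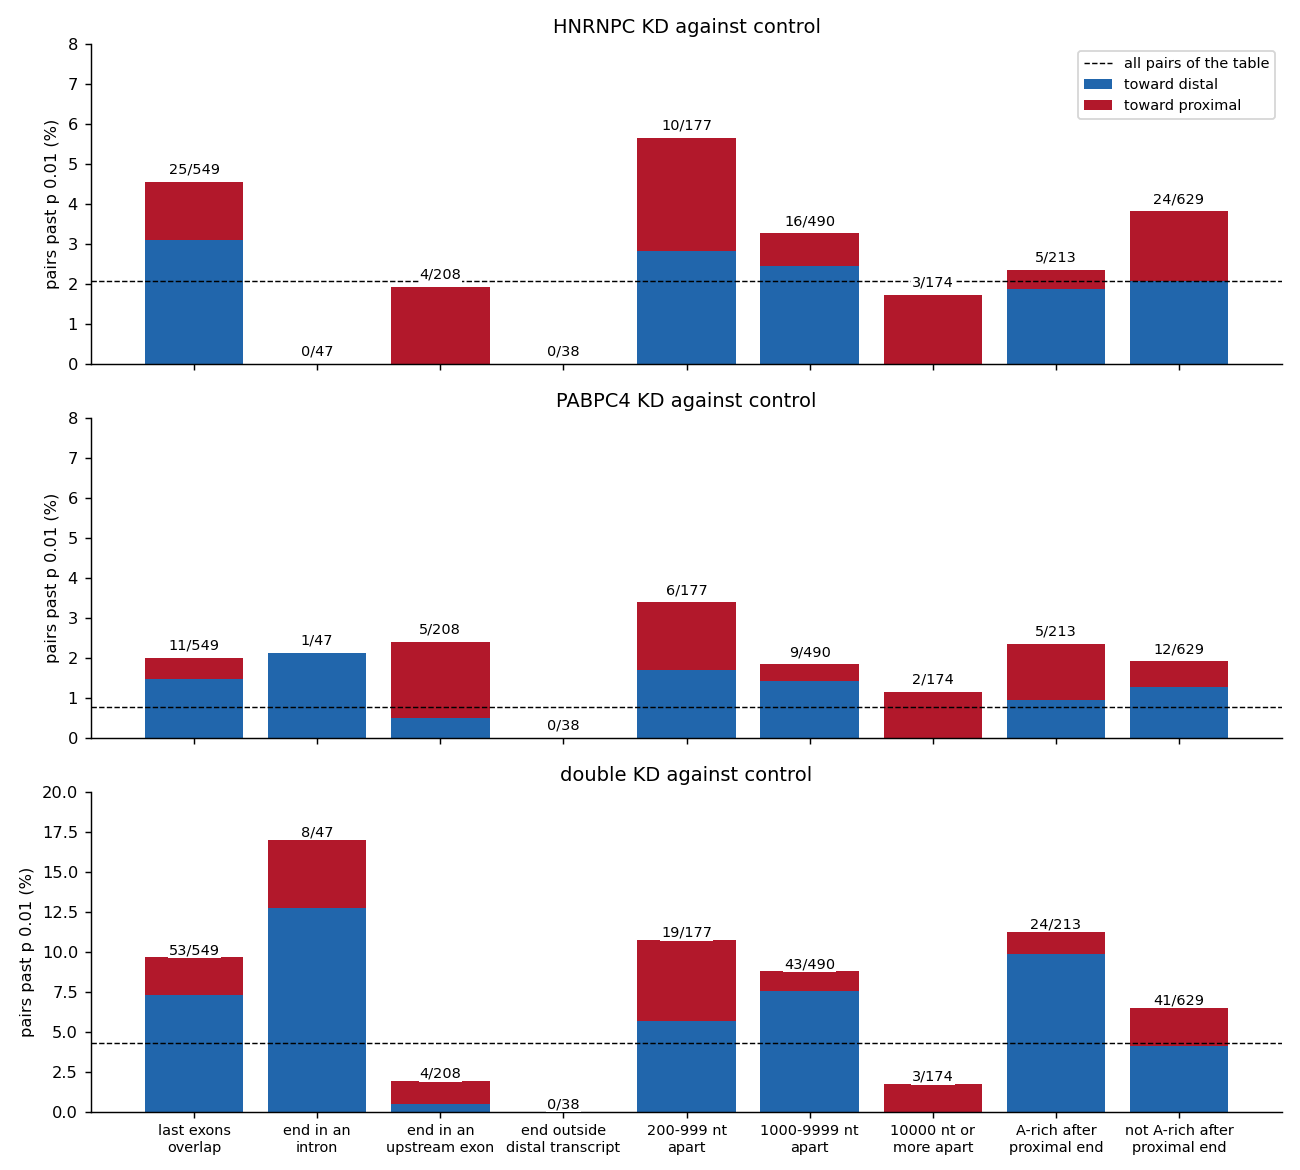
Percent of annotated pairs called at p 0.01 in each class of structure, distance between ends and sequence after the proximal end, 1 panel per KD, split into calls toward the distal end (blue) and toward the proximal end (red), with called over total above each bar and the share over all pairs of the table as a dashed line. In double KD the bars for intronic ends (8 of 47) and for A-rich sequence (24 of 213) stand highest, and calls at 10000 nt or more are all red.

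To compare backgrounds without the shared control, differences between tables were formed, in which control cancels. Double KD minus PABPC4 KD is the effect of HNRNPC loss in cells in which PABPC4 is also knocked down. Of the 1069 pairs, 33 were called (3.09%, background 1.9% of 4692 pairs), 20 of them negative, that is toward distal (background 1.02%), and 11 passed the adjusted threshold (background 0.554%). The error counts the control as noise although it cancels, and with an equal share of the variance taken off for it 80 pairs were called (background 6.07%). The median was −0.0519 (95% interval −0.112 to −0.00399). The smallest p-values were those of ECE1 (−0.845, adjusted p 1.5e-06), CRELD2 (−1.41, adjusted p 7.5e-05) and ZSCAN18 (−1.22, adjusted p 0.000241) among the negative and AXL (1.56, adjusted p 2.12e-06), SNHG16 (1.51, adjusted p 0.000251) and CHURC1 (1.46, adjusted p 0.00205) among the positive. CD44 differed by 1.03 (adjusted p 0.024).

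Double KD minus HNRNPC KD is the effect of PABPC4 loss in cells in which HNRNPC is also knocked down. Here 26 annotated pairs were called (2.43%, background 1.56%), 20 of them negative (background 1.04%) and 6 past the adjusted threshold (background 0.469%), with a median of −0.0597 (−0.0967 to −0.0211). With the control share taken off, 66 were called (background 3.92%). ECE1 (−0.76, adjusted p 3.94e-05), CRELD2 (−1.33, adjusted p 0.000212) and KIAA0319L (−0.809, adjusted p 0.00513) led the negative pairs, and CHURC1 (1.22, adjusted p 0.0237), FGFR1 (2.15, adjusted p 0.00741) and CBX6 (0.515, adjusted p 0.145) the positive ones.

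Against the sum of the single KDs, double KD departed at 12 pairs (1.12%, background 1.04%), 9 of them negative (background 0.682%). ECE1 alone of the annotated pairs passed the adjusted threshold (background 0.0639%), at −0.711 (95% interval −1.03 to −0.39, adjusted p 0.0299). Named by the same rule was TIMM50 (−1.5, adjusted p 0.109) below the sum. Above it were CHURC1 (1.24, adjusted p 0.304), SETD5 (0.555, adjusted p 0.431) and AHI1, a protein of the primary cilium (3.07, adjusted p 0.53). The proximal transcript of AHI1 is tagged as lacking a complete 3′ end. The median departure was −0.0979 (−0.138 to −0.0323), and because the control enters both single KDs, its counting error enters this value as well. With this error, which is an upper one, the share called stood close to that of all pairs. With the control share taken off 43 pairs were called (background 2.77%), and with errors from reconstructed reads the count among the 503 pairs that have them went from 8 to 23.

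An effect seen in 1 table can be followed in a difference that uses none of its libraries. Of the 37 annotated pairs called in HNRNPC KD, 28 (75.7%) had the same sign in double KD minus PABPC4 KD, 16 of 20 distal and 12 of 17 proximal, beside 64 of 80 (80%) among the other shared pairs. Of the 19 called in PABPC4 KD, 12 (63.2%) had the same sign in double KD minus HNRNPC KD, 8 of 11 distal and 4 of 8 proximal, beside 12 of 24 (50%) among the others. In size, the called pairs of HNRNPC KD had a median of 1.04 in their own table and 0.598 in the direction of the call in the difference. Those of PABPC4 KD had 0.767 and 0.169. The pairs were chosen on their size in the first table, and these values are a description.

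Lists of genes fitting the study held few pairs. Their calls stand beside 3.46%, 1.78% and 8.33% of all 1069 annotated pairs in HNRNPC KD, PABPC4 KD and double KD. Over all pairs of those comparisons the shares called were 2.08%, 0.756% and 4.33%. Of 26 factors of 3′ end processing, PABPC1, PABPN1, PAPOLA and RBBP6 had annotated pairs, and none of their 6 pairs was called in any table, with medians of 0.000824 in double KD, 0.0660 in HNRNPC KD and −0.336 in PABPC4 KD. PABPN1, the nuclear poly(A)-binding protein, had a logAPAR of 0.0199, 0.17 and 0.202 in HNRNPC KD, PABPC4 KD and double KD. Of 21 hnRNP and related genes, HNRNPA1, HNRNPF, HNRNPR, RBMX and TIA1 had 5 pairs, with medians of −0.445, −0.146 and −0.318 in the same order. HNRNPF, a protein that binds G runs, alone was called, toward the distal end in HNRNPC KD (0.165 times control, 0.0431 to 0.632, p 0.00852). It was close to that in PABPC4 KD (0.176 times, p 0.0106) and double KD (0.232 times, p 0.0301), neither called. Its distal end had 2.59 reconstructed reads in control and 13.2, 14.1 and 16.3 in HNRNPC KD, PABPC4 KD and double KD. Each value thus rests on a nearly empty end in control. Of 13 genes of RNA interference, TNRC6C, which recruits deadenylases to microRNA targets, had the single pair, at −1.90, −0.617 and −2.43 in that order, none called.

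Of 34 genes of invasion and the mesenchymal state, AXL, CAV1, CD44, ITGB1, LAMB3, LAMC1 and ZEB1 had 9 annotated pairs, with medians of 0.421, 0.0776 and 0.513 in HNRNPC KD, PABPC4 KD and double KD. AXL and CD44 were called in HNRNPC KD and double KD, both toward the proximal end, and no pair of the list was called in PABPC4 KD. These were 2 of the 9 pairs in each, beside 3.46% and 8.33% of all annotated pairs, and the difference was not tested. PGK1, a glycolytic enzyme, had a logAPAR of 0.314, −0.582 and 0.379 in that order and was not called. The lists hold 1 to 9 pairs each and were chosen with earlier results known, so their counts describe these genes only.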

How the data were processed

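RNA 3′ ends of 8 MDA-MB-231 samples in 4 groups, taken from the titles in the labels, were sequenced with QuantSeq REV. The authors quantified the 3′ ends of Gencode release 33 transcripts with Salmon 0.14.1, normalised the abundances and fitted APAlog, a multinomial logistic regression over the sites of a gene. The submitters' processing notes also list hg38 and UMI-tools, and whether reads were deduplicated is not given in the sources used here. The deposited tables hold, per pair, logAPAR (a change in the proximal to distal ratio, as a natural log), a p-value and an adjusted p-value (q-value) of each KD against control. These are the authors' own comparisons, used because the tables hold nothing else, and all 9 value columns belong to groups and none to a library, so total depth per library is unknown.

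Each Wald standard error was computed from logAPAR and its p-value. Benjamini-Hochberg values recomputed over each table matched the deposited ones to 7.0e-14. Differences between tables used the summed Wald variances, which count the shared control as noise, and two-sided normal tests. At 681 genes with 3 or more shared sites, normalised reads per site and group were solved from the variances (median misfit 1.85e-05), a step tested on simulated data without noise. Transcript ends, stop codons and sequence came from Gencode release 44 on hg38 by name and version, which 1590 of 1810 member ends matched. Python 3.11.15, numpy 2.4.6, pandas 2.3.3 and scipy 1.17.1 were used.

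Pairs were named by rule: per table up to 5 per direction of smallest p, 1 per gene, pairs called in more than 1 table, up to 3 per direction for each difference, called members of the lists, and genes the study singles out. Pairs, lists and rules were chosen with earlier results of these data known. Alternatives were an adjusted p of 0.05, a p of 0.001, 1 pair per gene, subsets by annotation, sequence and distance, and other errors. Sequences on chromosome 8 were not printed, and some pairs that the rule names are not reported here.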

Additional observations from a re-analysis of the deposited data

Results flagged for a closer look

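At ECE1 the value in double KD lay −0.711 from the added single KDs on the natural log scale (95% Wald interval −1.03 to −0.39, adjusted p 0.0299 over 4692 pairs), which drew attention because the effect of adding 1 KD differed between backgrounds. HNRNPC loss moved ECE1 by −0.135 in cells with a non-targeting second guide and by −0.845 in PABPC4 KD cells. PABPC4 loss moved it by −0.0496 and −0.76 in the corresponding backgrounds. It was the only annotated pair past the adjusted threshold, the tables give no replicate spread for it, and its proximal end ends in an A-rich stretch of transcript without being followed by one.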

How the results depend on the processing

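Of 63 alternatives, 45 left the count, share or median within its limits and 18 moved it. The 45 include medians near 0 that changed sign. That of HNRNPC KD went from 0.00576 to −0.0133 without incomplete 3′ ends and to −0.014 for pairs with a matching annotation. That of PABPC4 KD went from −0.00386 to 0.00311 at 1 pair per gene and to 0.00557 for pairs with a matching annotation. The distal share of HNRNPC KD went from 54.1% to 50% without pairs that hold an end followed by A-rich sequence. Past an adjusted p of 0.05 instead of p 0.01, annotated pairs called went from 37 to 12 in HNRNPC KD, from 19 to 1 in PABPC4 KD, from 89 to 48 in double KD, from 33 to 11 in double KD minus PABPC4 KD, from 26 to 6 in double KD minus HNRNPC KD and from 12 to 1 for the departure from the sum. At p 0.001 they were 17, 5 and 47 in HNRNPC KD, PABPC4 KD and double KD. Without pairs that hold an end followed by A-rich sequence, double KD had 58 and double KD minus HNRNPC KD 15. With an equal share of the variance taken off for the shared control, the differences had 80, 66 and 43 calls in the order above, and with errors from reconstructed reads the counts among the 503 pairs that have them went from 21 to 45, from 15 to 38 and from 8 to 23. The distal share of called pairs in double KD went from 62.9% to 72.3% in the 842 pairs with a matching annotation. In all of those the proximal end lay upstream, so this setting dropped the 227 unmatched pairs and no pair for its order. The distal share went down to 58.8% at 1 pair per gene and to 56.9% without pairs that hold an end followed by A-rich sequence. No paired analysis was possible because values per replicate are not part of the tables, so also no replicate could be left out. At a median standard error of 0.605 to 0.638, depth limits the calls to large shifts or well-read pairs.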

Other observations

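In 3 genes with 3 annotated ends each, both calls of double KD shared the middle end, with opposite signs, which a reading by single pairs hides. CHURC1 had 583.2 reconstructed reads at its middle end in control and 152.5 in double KD, with 474.6 and 477.8 in HNRNPC KD and PABPC4 KD, while its outer ends had 45.8 and 19.96 reads in control and 50.5 and 23.7 in double KD. Its outer pair had a logAPAR of −0.0748 in double KD. ARFIP2, which encodes arfaptin-2, had 260.5 reads at its middle end in control and 112.4 in double KD, with 43.4 and 54.6 at the end before it and 16.9 and 20.7 at the end after it. BIVM had 114.6 and 47.2 reads at its middle end, which is followed by A-rich sequence, and 31.2 and 30.5 at its last end. Its first end had 0.827 reads in control and 7.93 in double KD, so its call against the middle end also rests on a nearly empty end that was higher in each KD (2.41 in HNRNPC KD and 5.33 in PABPC4 KD). In each of the 3 genes the middle end had the most reads in control, and it was the end with the largest drop in double KD. These genes were named after their values were seen, and these reads have no replicate error.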
